A study of Mus musculus with 12 samples.

Results

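Genes of 2 peptide signalling systems, 5 in all, were followed across sorted cells of mouse embryos: Aplnr and Apln of the apelin system, and Adm, Calcrl and Ramp2 of the adrenomedullin system. They were represented by 9 probe sets (a probe set is the group of array probes that reports 1 transcript), taken from 45037 (18193 named genes) by their single gene symbol in the platform table. Apln and Ramp2 had 1 probe set each, Aplnr and Adm 2 each and Calcrl 3. Another 2 probe sets list Ramp2 together with a second gene and were not used.

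The embryos were at embryonic day 8.0, of a mixed C57BL/6 and FVB line labelled ER71 EYFP, and were wild-type or mutant for ER71. ER71 is the former name of Etv2, a transcription factor of the ETS family without which vessels and blood do not form. Embryos were dissociated with trypsin and their cells sorted by EYFP, a yellow fluorescent protein, which gave wild-type positive, wild-type negative, mutant positive and mutant negative cells with 3 arrays each, 12 in all. All 12 RNAs went through 2 rounds of amplification. The labels do not name the mutant allele, the sequences that drive EYFP, or whether samples of a group were separate embryos or pools. The spread behind the p-values is that among these samples and may be technical.

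Apelin, the secreted product of Apln, binds the apelin receptor Aplnr, a G protein-coupled receptor of mesoderm, heart progenitors and vessels. Apela, a second peptide ligand of the same receptor, acts in the early embryo. Adrenomedullin, the product of Adm, signals through Calcrl, a receptor that reaches the cell surface only with a RAMP partner protein. With Ramp2 as partner, Calcrl is an adrenomedullin receptor, coupled through Gs to cyclic AMP. Mouse embryos without Adm, Calcrl or Ramp2 die with vascular defects and oedema.

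Calcrl and Ramp2, which together form an adrenomedullin receptor, were high in wild-type positive cells and far lower in the other 3 groups. Aplnr was higher in positive than in negative cells of both genotypes. Neither ligand gene, Apln or Adm, passed the threshold in any comparison. With same-numbered arrays paired as a block instead, Adm passed in mutants whether the block was fixed or random. Apln passed in wild types with the random block only. The difference of positive from negative cells within a genotype is called its sort difference. A difference passed where limma's adjusted p, taken over all 45037 probe sets, was under 0.05.

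The stretches of 250 bases just before the RefSeq start of transcription are shown for the 3 genes with a window in the promoter table, to set Calcrl, which had the largest differences among the 5 genes, beside the ligand genes Apln and Adm. Capitals mark the ETS core GGAA on either strand (TTCC where it lies on the other strand), and all motifs were searched on both strands. The windows, from RefSeq on GRCm38.p6, lie at chr2:84425267-84425516 on the minus strand for Calcrl, at chrX:48034854-48035103 on the minus strand for Apln and at chr7:110627407-110627656 on the plus strand for Adm.
Calcrl: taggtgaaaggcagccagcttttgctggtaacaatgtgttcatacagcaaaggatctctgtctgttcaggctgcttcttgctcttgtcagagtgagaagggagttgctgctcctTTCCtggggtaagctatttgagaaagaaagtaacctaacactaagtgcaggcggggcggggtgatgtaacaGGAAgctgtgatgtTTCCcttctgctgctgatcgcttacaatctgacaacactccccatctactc
Apln: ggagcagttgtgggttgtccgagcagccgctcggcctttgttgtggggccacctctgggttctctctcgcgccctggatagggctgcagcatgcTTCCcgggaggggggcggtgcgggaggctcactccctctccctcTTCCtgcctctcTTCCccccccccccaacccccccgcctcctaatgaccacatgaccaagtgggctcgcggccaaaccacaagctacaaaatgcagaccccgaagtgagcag
Adm: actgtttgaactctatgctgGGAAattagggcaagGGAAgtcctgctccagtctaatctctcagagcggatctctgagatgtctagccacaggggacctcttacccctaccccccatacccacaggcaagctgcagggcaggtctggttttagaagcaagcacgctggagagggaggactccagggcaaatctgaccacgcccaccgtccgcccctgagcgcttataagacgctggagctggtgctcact
Calcrl and Apln held 3 GGAA cores each and Adm 2, where the median over 32817 promoter windows of this length was 3 and 93.4% held at least 1. The extended core CCGGAA was in none of the 3 windows (12% of all windows). The forkhead-ETS composite core AACAGGAA, which overlaps GGAA, occurred once in Calcrl, beginning 69 bases before the start, and not in Apln or Adm (2.25% of all windows). Of the cores of hypoxia response elements, GCGTG occurred 2 times in Adm, on the other strand, and in neither other gene (28.1% of all windows), and ACGTG in none of the 3 (16.6%). These are matches of letters, and no binding was measured.

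Values are the authors' log2 RMA values, a scale on which 1 unit is a doubling. Etv2 itself had a mean of 10.93 in wild-type positive cells, 7.64 in wild-type negative, 7.31 in mutant positive and 7.39 in mutant negative cells. It was lower in mutant than in wild-type positive cells by -3.62 ± 0.17 (SE, n = 3 per group; limma, adjusted p = 5.49e-07), although what the mutant allele changes, and whether the probe set reports it, is not known from the labels. Both wild-type arrays numbered 1 had the Y-linked Eif2s3y at 10.81 or above, against 4.53 or below on the other 10. The X-linked Xist read 10.33 on wild-type positive array 1 and 8.19 on wild-type negative array 1, against 13.36 or above on the other 10. Whether these arrays held cells of both sexes was not tested. Afp, made by yolk sac endoderm, reached 11.98 on mutant positive array 1 and 5.02 and 4.04 on its 2 replicates. It was also high, at 9.34 to 11.06, on the negative arrays of both genotypes, and 4.34 or below on wild-type positive arrays. The excess of the 3' over the 5' actin probe sets grows as RNA breaks down. It averaged 1.53 log2 in mutant positive cells and 2.21 to 2.40 in the other groups. Mutant positive arrays, at 1.40 to 1.62, overlapped with wild-type positive array 3 (1.54) and wild-type negative array 3 (1.57). The 2 wild-type arrays numbered 1 had 3.05 and 3.14. The part of this excess in the results was not tested. Array medians were 6.98 to 7.06, and values below the arrays' 25th percentiles, 5.62 to 5.69, are called dim.

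Calcrl read 12.23, 11.67 and 11.97 log2 in wild-type positive cells at its brightest probe set (1425814_a_at), and 7.09, 6.83 and 7.47 in their negative counterparts. Mutant positive cells had 7.61, 7.61 and 7.23, and mutant negative cells 6.67, 7.15 and 7.04. The lowest wild-type positive array, at 11.67, lay far above the highest of the other 9, at 7.61. Calcrl rose in wild-type positive over wild-type negative cells by 4.83 ± 0.20 log2, or 28.4-fold (limma, adjusted p = 2.26e-07). It was lower in mutant than in wild-type positive cells by -4.47 ± 0.20 log2, which is 22.2-fold (adjusted p = 4.29e-07). In such mixtures of cells, fewer cells of a type and less RNA per cell cannot be told apart. The mutant sort difference was 0.53 ± 0.20 log2 (95% confidence interval 0.08 to 0.98, adjusted p = 0.3), although the positive arrays all lay above the negative ones. The sort difference was smaller in mutants than in wild types by -4.30 ± 0.29 log2 (interaction, adjusted p = 2.38e-05).

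The other 2 probe sets of Calcrl were dim on most or all arrays. The first, 1418489_a_at, read 5.71, 5.91 and 6.35 in wild-type positive cells and 5.20 to 5.44 on the other 9 arrays, and lay below the array's 25th percentile on 9 of 12 arrays. It was higher in wild-type positive than wild-type negative cells by 0.57 ± 0.14 log2 (adjusted p = 0.0456) and lower in mutant positive cells by -0.71 ± 0.14 (adjusted p = 0.0158), the same directions as the brightest probe set at a smaller size. The first of these calls was lost under 14 of 21 alternative settings (adjusted p up to 0.148) and the second without mutant positive array 2 (0.0591) or when only the 2 groups were fitted (0.115). The second dim probe set, 1459536_at, lay between 4.49 and 5.41 on the 12 arrays, below the 25th percentile on each, and passed in no comparison. Averaging all 3 probe sets gave 1.83 log2 for the wild-type sort difference and -1.81 for the genotype difference in positive cells, both still past the threshold.

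Ramp2, a partner with which Calcrl forms an adrenomedullin receptor, read 11.19, 11.51 and 12.18 in wild-type positive cells. It had 8.31, 8.34 and 8.59 in wild-type negative cells, 9.18, 9.03 and 9.37 in mutant positive cells and 8.70, 8.03 and 8.51 in mutant negative cells. The order of the groups was wild-type positive, mutant positive, mutant negative and wild-type negative. Wild-type positive arrays did not overlap with mutant positive arrays, nor these with mutant negative arrays, whereas the negative cells of both genotypes had means of 8.41 and overlapped. Ramp2 rose in wild-type positive over wild-type negative cells by 3.22 ± 0.24 log2, or 9.29-fold (limma, adjusted p = 1.53e-05), and was lower in mutant than in wild-type positive cells by -2.44 ± 0.24 log2, or 5.41-fold (adjusted p = 0.000161). The interaction was -2.44 ± 0.34 log2 (adjusted p = 0.00415). In mutants the positive cells exceeded the negative cells by 0.78 ± 0.24 log2 (95% confidence interval 0.25 to 1.31), which did not pass (adjusted p = 0.158) but did with same-numbered positive and negative arrays as a fixed block (0.0394; as a random block 0.0525).

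Aplnr was bright in all 4 groups. Its brightest probe set, 1438651_a_at, read 14.03, 13.75 and 14.01 in wild-type positive and 12.08, 12.29 and 12.77 in wild-type negative cells, and 13.25, 13.76 and 13.53 in mutant positive and 12.45, 12.29 and 12.26 in mutant negative cells. All 6 positive arrays stood above all 6 negative arrays, and the 2 genotypes overlapped within each fraction. Aplnr rose in positive cells by 1.55 ± 0.18 log2, or 2.92-fold, in wild types (limma, adjusted p = 0.000449) and by 1.18 ± 0.18 log2, or 2.27-fold, in mutants (adjusted p = 0.00575). Mutant and wild-type positive cells differed by -0.42 ± 0.18 log2 (95% confidence interval -0.81 to -0.02, adjusted p = 0.26), and the interaction was -0.37 ± 0.25 log2 (-0.93 to 0.20, adjusted p = 0.746). These intervals do not show that the genotypes were alike.

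The second probe set of Aplnr, 1423037_at, kept the same order of groups with more spread. It read 10.81, 9.93 and 10.61 in wild-type positive cells, 8.24, 8.46 and 8.99 in wild-type negative cells, 9.24, 10.20 and 9.10 in mutant positive cells and 8.38, 8.19 and 7.52 in mutant negative cells. It rose in positive cells by 1.89 ± 0.34 log2 in wild types (adjusted p = 0.00898) and by 1.49 ± 0.34 in mutants (adjusted p = 0.0482). The mutant call was lost under 15 of 22 alternatives (up to 0.171), including loss of any 1 array except wild-type positive array 2. The wild-type call was lost without both wild-type arrays numbered 1 (1.55, adjusted p = 0.134). At this probe set Aplnr was lower in mutant than in wild-type positive cells by -0.94 ± 0.34 log2. That difference did not pass (limma, adjusted p = 0.176), but was larger than the -0.42 of the brightest probe set. The interaction was -0.40 ± 0.485 log2 (adjusted p = 0.884).

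**Figure D1:**
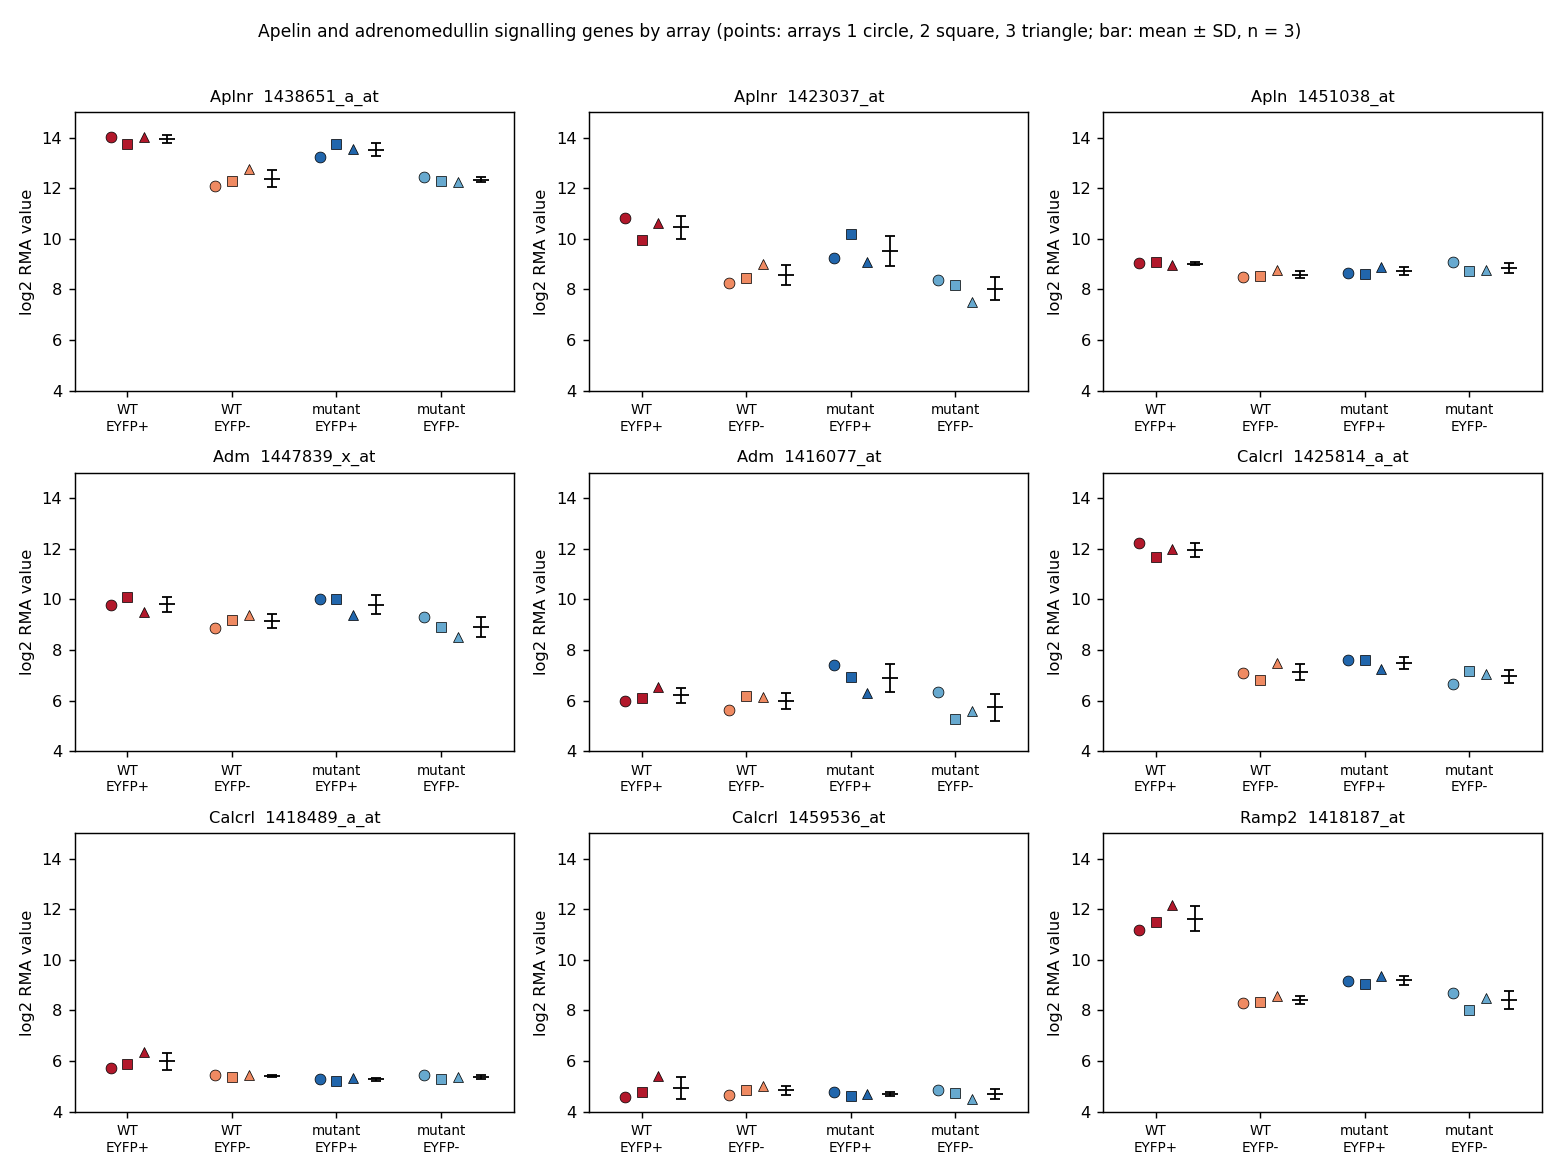
Log2 RMA values of all 9 probe sets on the 12 arrays (points; circle, square and triangle are arrays 1, 2 and 3) with the mean and SD of each group of 3 (bars), on 1 common vertical scale. Calcrl (1425814_a_at) and Ramp2 are high on the 3 wild-type positive (WT EYFP+) arrays, and both Aplnr probe sets are higher in positive than in negative cells of each genotype.

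Apln, the apelin gene, had group means from 8.59 to 9.02. Its values were 9.03, 9.07 and 8.96 in wild-type positive and 8.47, 8.53 and 8.76 in wild-type negative cells, and 8.67, 8.62 and 8.89 in mutant positive and 9.09, 8.72 and 8.77 in mutant negative cells. Wild-type positive arrays lay above wild-type negative and mutant positive arrays without overlap, but every group overlapped with the next in order of mean. The wild-type sort difference was 0.43 ± 0.13 log2 (95% confidence interval 0.15 to 0.71; limma, adjusted p = 0.0977), and passed with same-numbered arrays as a random block (0.048) but not as a fixed block (0.113). The genotype difference in positive cells was -0.29 ± 0.13 log2 (adjusted p = 0.261), the mutant sort difference -0.13 ± 0.13 (adjusted p = 0.822) and the interaction -0.56 ± 0.18 (adjusted p = 0.248).

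Adm, the adrenomedullin gene, was measured by a bright and a weak probe set. The bright one, 1447839_x_at, is of a class whose probes may also bind other transcripts. It read 9.79, 10.09 and 9.52 in wild-type positive, 8.85, 9.20 and 9.39 in wild-type negative, 10.00, 10.01 and 9.36 in mutant positive and 9.29, 8.89 and 8.50 in mutant negative cells. Positive and negative arrays did not overlap within either genotype, and the positive cells of the 2 genotypes had means of 9.80 and 9.79. The sort difference was 0.65 ± 0.25 log2 in wild types (95% confidence interval 0.11 to 1.20, adjusted p = 0.218) and 0.90 ± 0.25 in mutants (0.35 to 1.44, adjusted p = 0.103). The mutant difference passed with same-numbered arrays as a block (adjusted p = 0.032 fixed, 0.0327 random), and the wild-type difference did not (0.0701 and 0.0919).

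The weak probe set of Adm, 1416077_at, read 5.99, 6.09 and 6.55 in wild-type positive and 5.62, 6.20 and 6.15 in wild-type negative cells, and 7.40, 6.93 and 6.32 in mutant positive and 6.33, 5.27 and 5.60 in mutant negative cells, and was dim on 3 of the 12 arrays. Its mutant sort difference of 1.15 ± 0.32 log2 did not pass (adjusted p = 0.106) but did with the block (0.0167 fixed, 0.0297 random) and without mutant negative array 1 (1.45, adjusted p = 0.0438). Unlike the bright probe set, it had a higher mean in mutant than in wild-type positive cells, by 0.67 ± 0.32 log2 (95% confidence interval -0.03 to 1.38, adjusted p = 0.305).

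Set against the whole array, 5 of the 9 probe sets were called in the wild-type sort, all higher, where 4.48% of all probe sets were called and 2.76% were called higher. The arrays of 7 of the 9 did not overlap in that comparison, against 21.2% of all probe sets. In mutant against wild-type positive cells 3 of 9 were called, all lower (background 4.42% called, 2.34% lower), and 4 of 9 did not overlap (21.8%). In the mutant sort 2 of 9, both of Aplnr, were called higher (background 2.62% called, 1.55% higher), and 5 of 9 did not overlap (16.1%). The interaction was called for 2 of 9, the brightest probe set of Calcrl and that of Ramp2 (1.27%; 0.893% lower). With same-numbered arrays as a fixed block, 1848 probe sets were called in the mutant sort and 878 in the interaction, against 1181 and 573. With that block both probe sets of Aplnr, both of Adm and that of Ramp2 were called higher in the mutant sort. In the interaction the calls remained the brightest probe set of Calcrl and that of Ramp2. Between the negative cells of mutants and wild types limma called 0 of 9 and 0 of 45037 probe sets, of which 2119 (4.71%) had an unadjusted p under 0.05, and none of the 9 separated without overlap (10.9% of all). The probe sets of 1 gene share their transcript and are not independent. The 5 genes were chosen with earlier results of these data known, so these shares are a description and no test of enrichment.

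**Figure D2:**
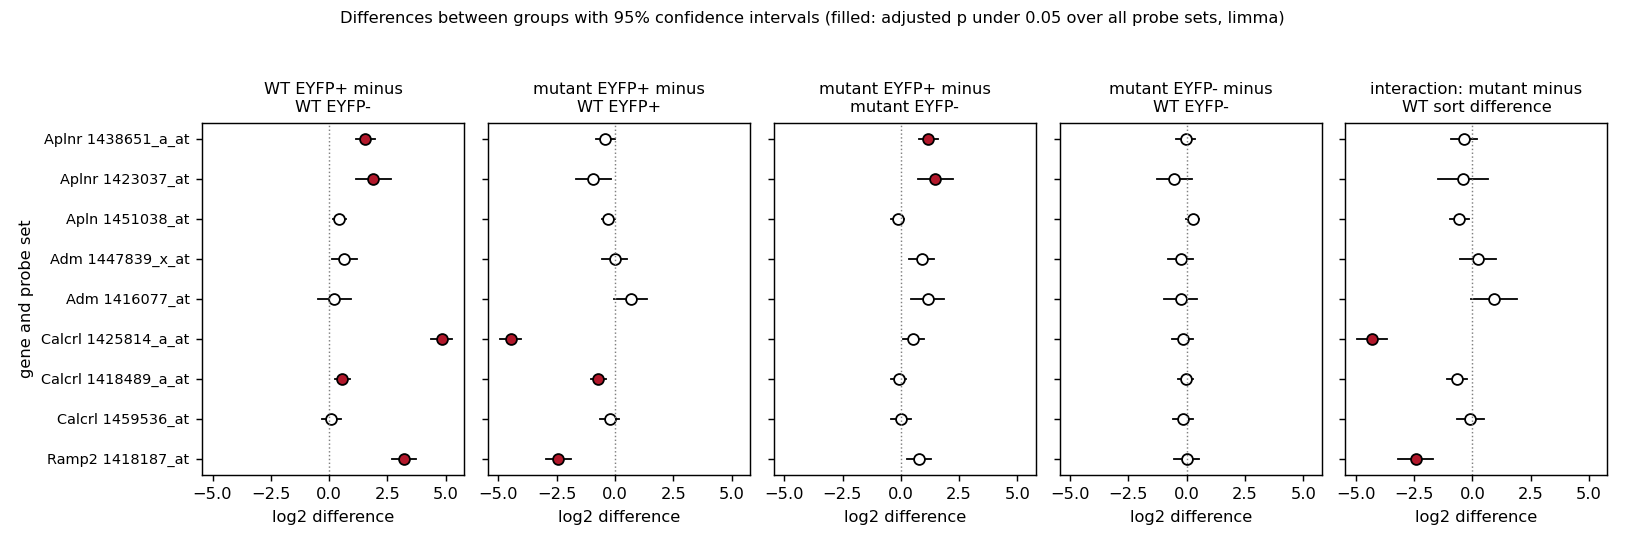
Differences in log2 RMA value (points) with 95% confidence intervals (lines) for the 9 probe sets in the 4 comparisons of groups and the interaction; filled points passed an adjusted p of 0.05. Calcrl (1425814_a_at) and Ramp2 lie at 4.83 and 3.22 in the wild-type sort and at -4.47 and -2.44 in mutant against wild-type positive cells, and no point is filled between the negative cells.

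The wild-type sort and the genotype difference both use the wild-type positive arrays, so their values are not independent of each other. Without both wild-type arrays numbered 1, the wild-type sort difference was 4.67 log2 for Calcrl, 3.38 for Ramp2 and 1.35 for Aplnr at their brightest probe sets, and each still passed (adjusted p = 4.01e-05, 0.000315 and 0.0117).

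Markers of cell types moved with these genes. Of 12 endothelial markers, 12 rose in wild-type positive cells (median 2.89 log2, against -0.02 over all 18193 genes at 1 probe set each) and 11 fell in mutant against wild-type positive cells (median -2.36, against 0.01). The mean over the endothelial list was 9.83 to 10.17 on wild-type positive arrays, 6.78 to 6.80 on wild-type negative, 7.35 to 7.47 on mutant positive and 6.79 to 6.92 on mutant negative arrays. Of the 12, 3 lay below the 25th percentile on each of the 9 arrays outside the wild-type positive group and 0 on those within it. Of 8 erythroid markers 7 rose in wild-type positive cells and 7 fell in mutant against wild-type positive cells. Of all 18193 genes at 1 probe set each, 6.49% were called in the wild-type sort and 6.27% in that genotype comparison. The erythroid list means were 10.98 to 11.61 on wild-type positive, 6.21 to 8.20 on wild-type negative, 6.07 to 6.16 on mutant positive and 6.15 to 7.70 on mutant negative arrays. The part of cell makeup in the Calcrl and Ramp2 differences was not tested.

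The mutant sort, in which Aplnr rose, held other markers. Kdr, a VEGF receptor of vessel progenitors and endothelium, rose by 2.57 ± 0.17 log2 and Tek, the angiopoietin receptor, by 2.04 ± 0.28 (limma, adjusted p = 0.000141 and 0.00334), while 10 of 12 endothelial markers did not pass, among them the junction genes Cdh5 (0.10) and Cldn5 (0.38). Of 10 cardiac markers 8 rose (median 1.58 log2), and of 7 allantois and extraembryonic mesoderm markers 5 rose (median 1.84), against -0.03 over all genes. The cardiac list averaged 11.27 to 11.43 on mutant positive arrays and 9.48 to 10.27 on the other 9, and the allantois list 9.62 to 9.77 and 7.69 to 8.88. Neural markers fell in 5 of 6 cases and somite markers in 3 of 8. Of all genes at 1 probe set each, 4.11% were called in the mutant sort. In wild types 1 of 10 cardiac markers (10%, against 6.49% of all genes) and 0 of 7 allantois markers passed. Whether the sorts differ was tested gene by gene through the interaction. There 4 of 10 cardiac (40%) and 3 of 7 allantois markers (42.9%) passed, all higher, against 1.86% of all genes. Yolk sac endoderm markers passed in 0 of 7 cases in the mutant sort. Their list mean was 9.41 on mutant positive array 1, 6.06 and 5.92 on arrays 2 and 3, and 8.23 to 8.27 on mutant negative arrays. The part of these cells in the Aplnr difference was not tested; without mutant positive array 1 it was 1.31 log2 (adjusted p = 0.00758).

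Adm is a known target of hypoxia signalling, and 15 hypoxia genes were set beside it. In wild types 2 rose, Epas1, which encodes a hypoxia-inducible factor of endothelium (2.37 ± 0.34 log2; limma, adjusted p = 0.00192), and Egln3, a hypoxia-induced prolyl hydroxylase (1.27, adjusted p = 0.032), and 13 did not pass (13.3% called, against 6.49% of all genes at 1 probe set each; median 0.05). In the mutant sort 2 of 15 rose (13.3%, against 4.11%), Epas1 (1.72 ± 0.34, adjusted p = 0.0221) and Vegfa, the vascular growth factor (0.70, adjusted p = 0.00245). In mutant against wild-type positive cells 3 rose and 1 fell (26.7%, against 6.27%), and in the interaction 0 of 15 passed. Of 12 immediate early and stress genes 4 rose in the wild-type sort (33.3%, against 6.49%; median 0.88), 2 fell in mutant against wild-type positive cells (16.7%, against 6.27%; median -0.54), 0 passed in the mutant sort (median 0.50) and 1 was lower in the interaction (8.33%, against 1.86%).

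Among the other ligand genes of the pathways, Apela ran opposite to Calcrl and Ramp2 in the comparisons that involve wild-type positive cells. It read 8.90, 8.63 and 8.87 in wild-type positive cells and between 9.57 and 11.00 on the other 9 arrays, so the wild-type positive arrays were the 3 lowest. Apela fell in wild-type positive against negative cells by -1.89 ± 0.27 log2 (limma, adjusted p = 0.00212), was higher in mutant than in wild-type positive cells by 1.46 ± 0.27 (adjusted p = 0.0122), and differed by 0.14 ± 0.27 in the mutant sort (adjusted p = 0.941). Its interaction of 2.03 ± 0.39 log2 passed (adjusted p = 0.0287), but not under 8 of 23 alternatives (up to 0.0878). These were the omission of any 1 wild-type positive array, of wild-type negative array 2 or 3, of mutant positive array 1 or 2, or of both wild-type arrays numbered 1. Adm2, Calcb and Iapp, which encode peptides of the calcitonin family, passed in no comparison, and Calca had no probe set with a single symbol.

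Receptor partners and related receptors followed no common pattern. Ramp1 and Ramp3, the alternative partners of Calcrl, lay at 7.60 to 7.83 and 7.04 to 7.92 on all 12 arrays at their brightest probe sets, which passed in no comparison. With the mean of its probe sets Ramp1 was instead higher in mutant than in wild-type positive cells, by 0.51 log2 (adjusted p = 0.0247). Their wild-type sort differences were 0.03 ± 0.09 and 0.05 ± 0.16 log2, beside 3.22 for Ramp2. Gpr182, a G protein-coupled receptor once proposed as an adrenomedullin receptor, read 7.84, 8.04 and 9.27 in wild-type positive cells and 6.80 to 7.09 on the other 9 arrays. It rose in the wild-type sort by 1.39 ± 0.29 log2 (limma, adjusted p = 0.0176) and fell in mutant against wild-type positive cells by -1.53 ± 0.29 (adjusted p = 0.012). The sort call was lost without any 1 wild-type negative array (0.062 to 0.0646) or with the 2 groups alone (0.0905), and the genotype call with the 2 groups alone (0.107). Among the alternatives run, its interaction passed only without wild-type positive array 3 (-1.03, adjusted p = 0.00713; -1.48 and 0.152 with it).

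Ackr3, a scavenger receptor that also takes up adrenomedullin, went the other way. It was lower in wild-type positive than negative cells by -0.78 ± 0.19 log2 (adjusted p = 0.0411, and no longer past the threshold under 13 of 24 alternatives, up to 0.161), and higher in mutant than in wild-type positive cells by 1.09 ± 0.19 (adjusted p = 0.00792; 0.0513 with the 2 groups alone). Its interaction of 1.04 ± 0.27 passed with same-numbered arrays as a block (adjusted p = 0.0176 fixed, 0.0293 random; 0.12 without). Calcr, the calcitonin receptor, and Crcp, a component of the calcitonin gene-related peptide receptor complex, passed in no comparison.

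**Figure D3:**
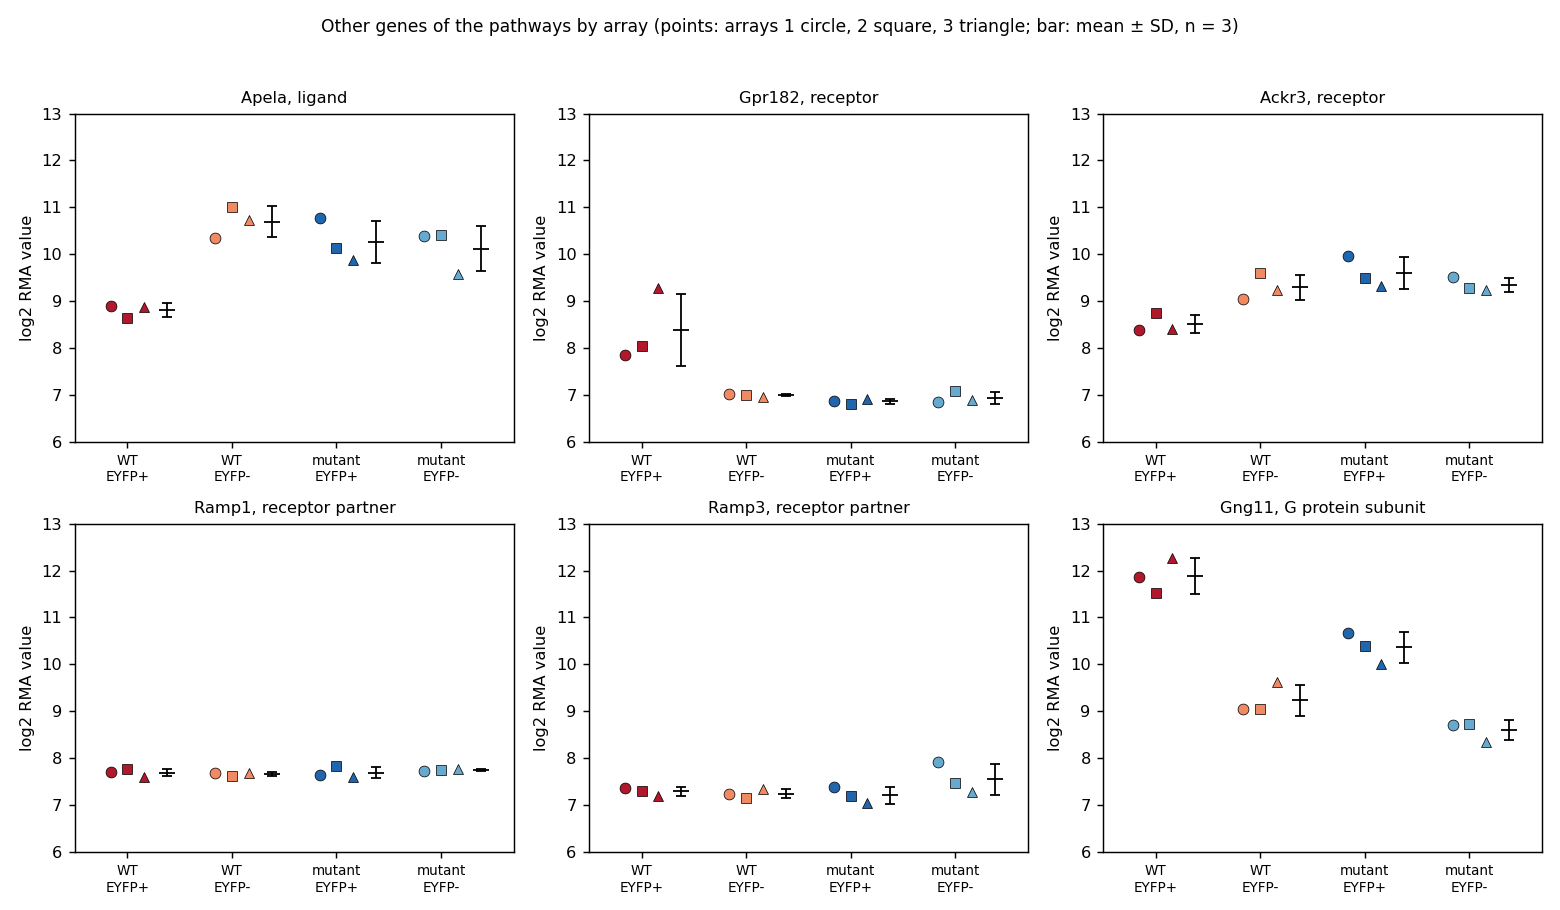
Log2 RMA values of 6 other genes of the pathways on the 12 arrays (points; circle, square and triangle are arrays 1, 2 and 3) with the mean and SD of each group of 3 (bars), each gene at its brightest probe set. The 3 wild-type positive (WT EYFP+) arrays are the lowest for Apela and the highest for Gpr182 and Gng11, while the brightest probe set of Ramp1 stays between 7.60 and 7.83.

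Most genes around the receptors did not pass, as was true of all genes at 1 probe set each. Of all genes, 6.49% were called in the wild-type sort, 6.27% in mutant against wild-type positive cells and 4.11% in the mutant sort. Of 6 measured genes of peptide processing and clearance, among them Pam, which amidates adrenomedullin, and the protease Furin, 0 passed in any comparison. Of 14 G protein, arrestin and receptor kinase genes, only Gng11, a G protein gamma subunit, passed (7.14% in each comparison where it did). It rose in positive cells by 2.65 ± 0.24 log2 in wild types (limma, adjusted p = 6.41e-05) and by 1.77 ± 0.24 in mutants (adjusted p = 0.00305), and was lower in mutant than in wild-type positive cells by -1.53 ± 0.24 (adjusted p = 0.00392). Gnas, which encodes the Gs alpha subunit, differed by 0.06 and 0.42 log2 in the sorts and did not pass.

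Of 21 measured cyclic AMP effectors, 3 rose and 1 fell in the wild-type sort. Adcy4, an adenylyl cyclase, rose by 0.88 ± 0.13 log2 (adjusted p = 0.00292) and was lower in mutant than wild-type positive cells by -0.86 ± 0.13 (adjusted p = 0.0038; 0.0505 with the 2 groups alone). Its interaction of -0.88 ± 0.19 fell just short (adjusted p = 0.0533) and passed under 6 of 22 alternatives, the pair block among them (0.0348 fixed, 0.0141 random). Prkar1a, a regulatory subunit of protein kinase A, rose by 0.69 ± 0.15 (adjusted p = 0.024) and the small GTPase Rap1b by 0.42 ± 0.10 (adjusted p = 0.048), and the cyclase Adcy8 fell by 0.79 ± 0.17 (adjusted p = 0.0192). The Prkar1a call was lost under 6 of 24 alternatives, and its value fell to 0.26 with the mean of its probe sets (adjusted p = 0.306). The Rap1b call was lost under 15 of 24, the fixed pair block among them (0.0795), but with the mean of its probe sets the value was 0.69 (adjusted p = 1e-04). The Adcy8 call was lost under 7 of 23. In the mutant sort Prkar1a differed by 0.51 ± 0.15 (adjusted p = 0.132), which passed with the pair block (0.0365 fixed, 0.0392 random). In mutant against wild-type positive cells Prkar2b, another regulatory subunit, fell by 1.82 ± 0.32 (adjusted p = 0.00863; its wild-type sort difference of 1.27 ± 0.32 missed the threshold at 0.0515 and passed under 9 of 24 alternatives, the pair block among them at 0.0237 fixed and 0.0171 random) and the cyclase Adcy2 rose by 0.51 ± 0.10 (adjusted p = 0.0152; lost under 2 of 23 alternatives). Over all 51 measured genes of these 5 lists, 5 rose and 3 fell in the wild-type sort (15.7%, against 6.49% of all genes at 1 probe set each), 3 rose and 4 fell in mutant against wild-type positive cells (13.7%, against 6.27%), and 1 of 51 passed in the mutant sort (1.96%, against 4.11%) and 1 in the interaction (1.96%, against 1.86%). With same-numbered arrays as a fixed block 2 rose in the mutant sort, and 2 rose and 2 fell in the interaction. Calls over all 45037 probe sets also grew with that block, from 1181 to 1848 and from 573 to 878. The list medians were 0.04, -0.05, 0.01 and -0.09 log2. The wild-type sort count was 3 rises and 1 fall without both wild-type arrays numbered 1, and there were 2 or 3 rises without any 1 wild-type array other than positive array 2. The falls numbered 1 without wild-type positive array 1 or wild-type negative array 1 or 2. With the 2 groups alone there were 3 rises and 1 fall in the wild-type sort. In mutant against wild-type positive cells they gave 1 rise and 2 falls. Over all probe sets, calls fell from 2018 to 962 in the wild-type sort without both wild-type arrays numbered 1. With the 2 groups alone they fell from 1989 to 960 in mutant against wild-type positive cells. The share of all genes was not taken under these alternatives, so these list counts have no background beside them.

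**Figure D4:**
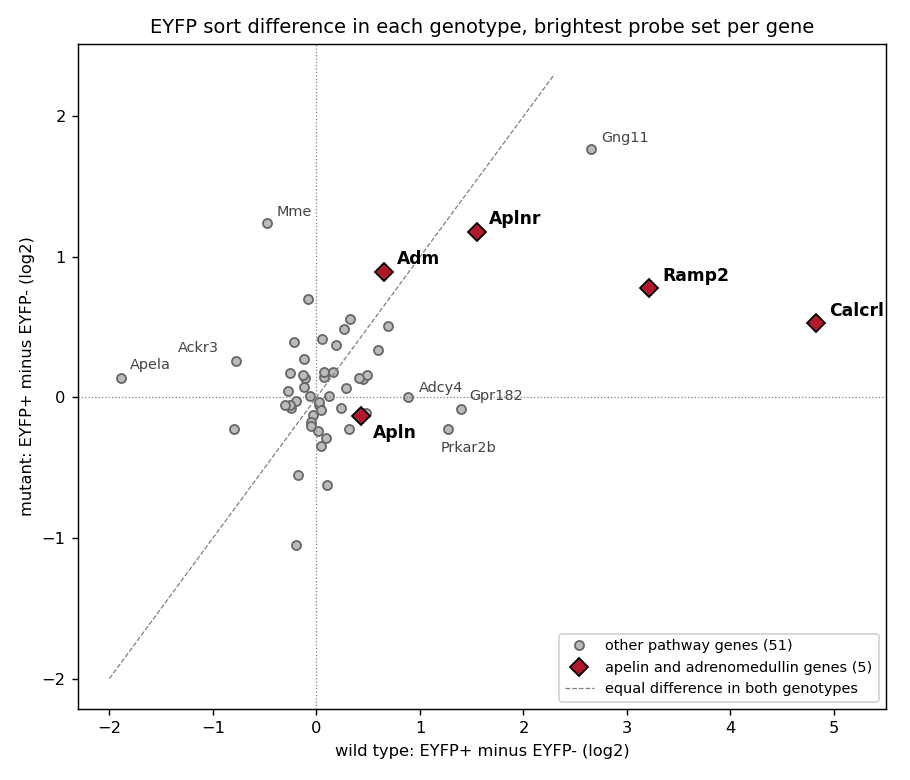
The positive minus negative difference in log2 RMA value in wild types (horizontal axis) and in mutants (vertical axis) for the 5 genes (diamonds) and 51 other pathway genes (circles), each at its brightest probe set; the dashed line marks equal differences. Calcrl (4.83 and 0.53) and Ramp2 (3.22 and 0.78) lie far to the right of the line, Aplnr (1.55 and 1.18) lies nearer to it, and Apela (-1.89 and 0.14) lies at the far left.

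For each of the 3 genes that passed, the genes with the most similar profile were sought among 16283 others. The measure was the root mean square difference over the 12 arrays after each gene was centred on its own mean, at 1 probe set per gene, and it is a description of these arrays with no test. For Calcrl the closest were Tal1, a transcription factor of blood and vessel progenitors (0.26 log2), the endothelial junction gene Cldn5 (0.26) and the growth factor gene Igf1 (0.31), where Calcrl itself varied by 2.08 on the same measure. For Ramp2 they were Exoc3l4 (0.36), the vesicle protein gene Vamp5 (0.39) and Vav3 (0.39), against 1.34 for Ramp2 itself. For Aplnr they were Zfpm1, a cofactor of GATA factors (0.22), the metalloprotease gene Adam19 (0.23) and Eva1b (0.25), against 0.72.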

How the data were processed

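The authors deposited log2 values from RMA, as the submitters' processing notes name it, with no version or settings given there. The values were used as deposited. Of 45101 probe sets 64 array controls were left out. Of the rest, 34945 had 1 gene symbol in the platform table, 932 several and 9160 were unnamed; RefSeq (GRCm38.p6) held 34741 of the named ones and changed 0 symbols. The 4 groups were fitted in 1 model in limma (version 3.58.1, under R 4.3.3) by lmFit and eBayes, leaving 8 residual degrees of freedom, with 5 contrasts, 2-sided tests and Benjamini-Hochberg adjustment over 45037 probe sets within a contrast. The interaction subtracts the wild-type sort difference from the mutant one. Errors are moderated SEs. The fit was tested on simulated data with independent arrays, so that test did not cover pairing of arrays.

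Within a genotype, the deviations of same-numbered positive and negative arrays from their group means correlated across genes. The correlations were 0.102 to 0.202 in wild types and 0.403 to 0.554 in mutants. For same-numbered arrays across genotypes they were -0.244 to 0.00145. The sample titles number the arrays and state no pairing, so pairs within a genotype are an assumption. Differently numbered arrays were not correlated, and the wild-type values are no larger in size than the -0.244 across genotypes. These values therefore do not establish pairs, least of all in wild types. Blocks for these pairs were alternatives, beside omission of each array, other probe-set summaries, filters, normalizations and variance models.

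The genes and lists were chosen with earlier results of these data known. The rule for named genes takes every probe set of the 5 genes, every other ligand and receptor measured, other pathway genes past the threshold in the wild-type sort or in mutant against wild-type positive cells, and the 3 closest profiles; markers are named beside a result they move with. Gnas, Pam, Furin and the hypoxia genes were named after their values were seen. Lists are described by counts and medians at the brightest probe set of a gene, with no set test. With 3 arrays a group, array number sets the precision. Promoters were read from the RefSeq promoter table for 3 of the 5 genes.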

Additional observations from a re-analysis of the deposited data

Results flagged for a closer look

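For 3 genes limma's interaction test found a sort difference that was unequal in wild types and mutants. Calcrl (1425814_a_at) had an interaction of -4.30 log2 and Ramp2 (1418187_at) of -2.44, with smaller positive-negative differences in mutants. Apela (1436287_at) had 2.03, with sort differences of -1.89 log2 in wild types and 0.14 in mutants. The Apela call was lost under 8 of 23 alternatives (limma, adjusted p up to 0.0878), and those of Calcrl and Ramp2 under 0 of 23.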

How the results depend on the processing

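Over 585 values of the brightest probe sets of the 5 genes in 5 contrasts and all alternatives, 580 kept their side of the threshold, 0 lost a call, 0 reversed a called direction and 5 gained a call. With the replicate block, the pairing of same-numbered positive and negative arrays, Adm passed in the mutant sort (0.90 log2, adjusted p = 0.032 fixed and 0.0327 random), Ramp2 passed there with the fixed block (0.78, 0.0394) and Apln passed in the wild-type sort with the random block (0.43, 0.048). The block changed no other call of these probe sets. With the mean of its probe sets Adm also passed in the mutant sort (1.02, 0.0298). The cause was not tested.

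Counts over all probe sets moved more. The fixed block gave 1848 calls in the mutant sort and 878 in the interaction, and the random block 3252 in the wild-type sort, 1993 in the mutant sort and 1060 in the interaction, where no block gave 2018, 1181 and 573. Leaving out 1 array gave 1272 to 2013 calls in the wild-type sort, 1304 to 2095 in mutant against wild-type positive cells, 699 to 1191 in the mutant sort, 0 to 1 between negative cells and 385 to 626 in the interaction. Counts over 1.5 times lower than with all arrays came without wild-type negative array 1 (1272) or 2 (1303) in the first of these, mutant positive array 1 (1304) in the second, and mutant negative array 2 (757) or 3 (715) or mutant positive array 2 (699) in the third. Without both wild-type arrays numbered 1 there were 962 in the wild-type sort and 1303 in mutant against wild-type positive cells, and with only the 2 groups fitted 960 in mutant against wild-type positive cells and 565 in the mutant sort. The fixed pair block gives no between-genotype contrast. Dim probe sets limit Calcrl (1418489_a_at, 1459536_at) and Adm (1416077_at).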
